A study of Mus musculus with 10 samples.

Results

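Neutrophil granule and maturation genes were followed across 2 kinds of bone marrow macrophage, with and without bacterial lipopolysaccharide (LPS). The set holds 31 of the 13809 genes in the table, chosen by name: proteins stored in neutrophil granules, surface and cytosolic proteins of maturing neutrophils, and a pair of inducible genes, Orm1 and Hdc. RNA was sequenced from marrow cells of C57BL/6 mice aged 12 weeks. The 4 groups were LPS-treated resident macrophages (n = 3 libraries), untreated resident macrophages (n = 3), LPS-treated bone marrow derived macrophages (BMDM, n = 2) and untreated BMDM (n = 2). Resident cells are the ferromagnetic cells that a magnetic column held back with no antibody added, labelled CD163+. BMDM, labelled CD163-, were grown from the cells that ran through the column, with 20% L929 cell supernatant as the source of macrophage growth factor, for 6 days by the protocol and 7 days by the sample titles. LPS, which activates Toll-like receptor 4, was given at 1 µg/ml for 4 h.

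Neutrophils fill their granules in order as they mature in the marrow. Promyelocytes make the proteases and myeloperoxidase of primary granules, myelocytes make the iron-binding and antimicrobial proteins of secondary granules, and later cells make the gelatinase of tertiary granules, together with large amounts of the cytosolic proteins S100A8 and S100A9. The transcription factor C/EBP epsilon drives the secondary granule genes, and granule genes of the early stages are switched off in mature cells. A few of these genes, such as Lcn2 and Hdc, are also known to be induced by bacterial products in macrophages.

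The values are gene read counts divided by 1 factor per library, called normalized reads here, with a floor of 1 where no read was found. Recovered gene read totals were 27.1 to 37.7 M per library. The 31 genes made up 1.39%, 1.66% and 1.65% of all normalized reads in LPS-treated resident libraries, against 0.862%, 1.42% and 1.80% in untreated resident libraries. In BMDM they made up 0.0229% and 0.0228% with LPS, against 0.00911% and 0.00932% without. The 15 macrophage markers took 0.882% to 1.02% in LPS-treated resident libraries and 1.11% to 1.40% in untreated ones, and 0.587% to 0.588% in LPS-treated and 0.740% to 0.809% in untreated BMDM. Cd163, the marker in the labels, had 4131 to 6476 normalized reads in LPS-treated and 5282 to 10740 in untreated resident libraries, and 14.4 to 14.9 in LPS-treated and 41.9 to 53.9 in untreated BMDM. Not all 15 were higher in resident cells than in BMDM. Untreated, 9 were called higher by limma in resident cells and 4 lower, where 39.2% and 32.6% of all genes were. With LPS on both sides 8 were called higher and 4 lower, where 36.7% and 34.5% of all genes were. None of the 15 was at the floor in all libraries of any group. The cells labelled resident macrophages thus gave both neutrophil and macrophage transcripts. The 2 sums depend on the genes chosen and do not measure the amounts of RNA from each cell type. Without S100a8, S100a9 and Ngp the other 28 genes took 0.567% to 0.686% in LPS-treated and 0.332% to 0.702% in untreated resident libraries. In such bulk samples fewer cells of a type and less RNA per cell cannot be told apart. Replicate 1 of each resident group held transcripts of the Y-linked gene Ddx3y (1975 normalized reads with LPS, 1856 untreated), and the other 8 libraries were at the floor for it. These 2 libraries also held the X-linked transcript Xist (2172 with LPS, 1651 untreated), which stood at 7873 to 13871 in the other 8. All BMDM libraries are among those 8. The labels do not say that libraries came from separate animals or cultures. The p-values here reflect only the scatter of libraries within groups, pooled over all 4 groups and moderated across genes. That scatter may be technical.

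The per-library values of all 31 genes show how far the 2 origins lie apart, gene by gene.

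**Figure D1:**
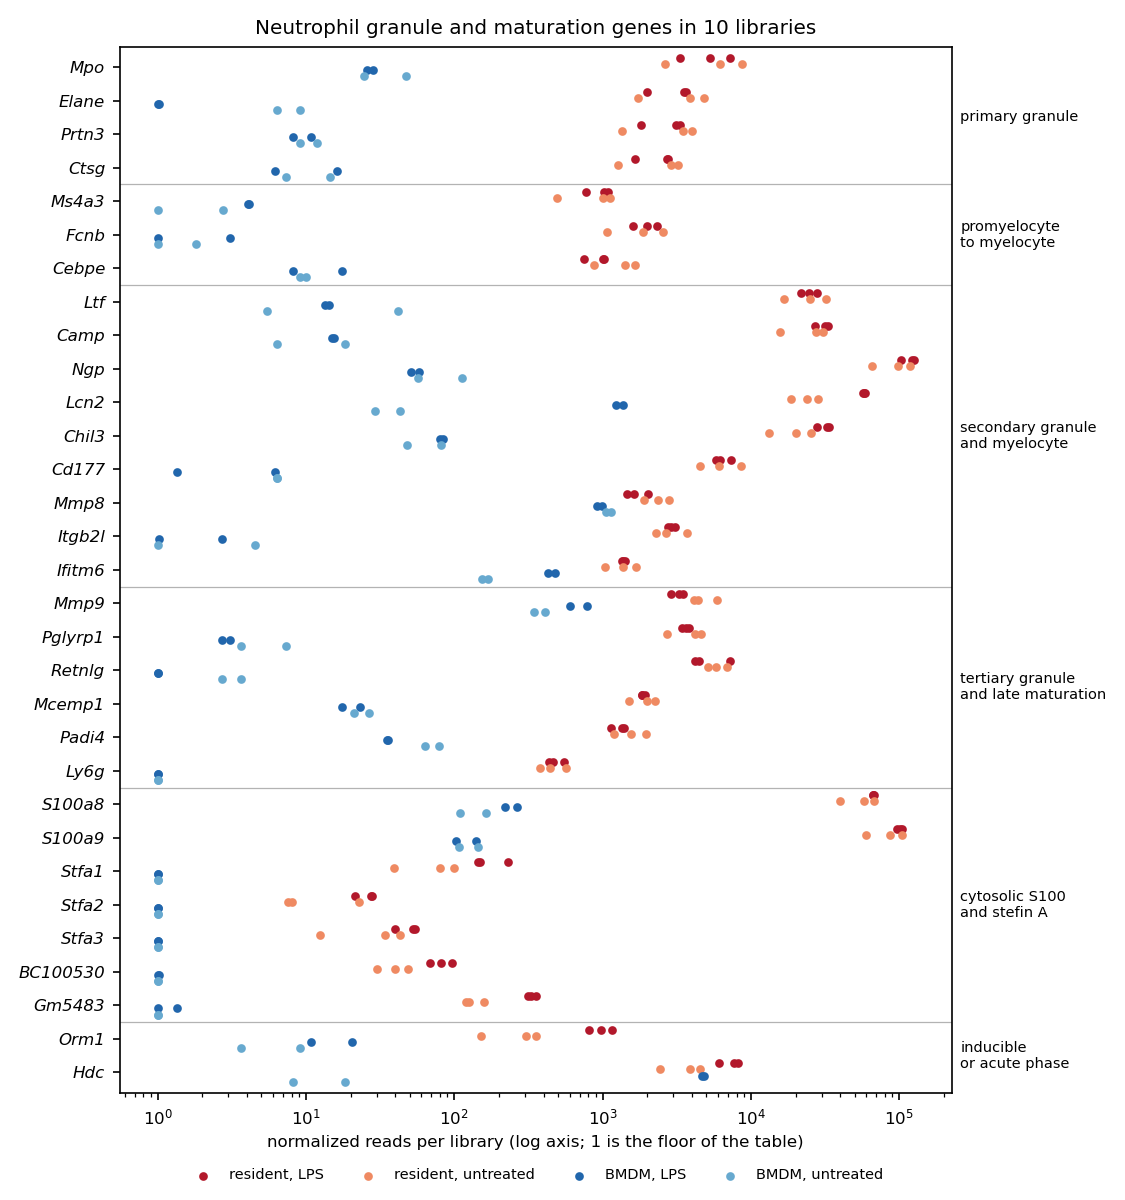
Normalized reads of each gene (rows, grouped by stage of maturation) in each of the 10 libraries (points, log axis, 1 is the floor of the table), with colours for LPS-treated resident, untreated resident, LPS-treated BMDM and untreated BMDM. Within each condition the resident points lie above the BMDM points for every gene, with narrow gaps for Mmp8 in both conditions and for Hdc with LPS.

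A handful of genes carry the contrast that runs through the set, and the 300 bases around their transcription starts are shown for comparison: Lcn2 and Hdc, which LPS raised in both origins, and Ltf and Ngp, a pair of secondary granule genes with no called LPS change in either. The sequences are RefSeq's on GRCm38.p6, from 250 bases before to 50 bases after the start, and read 5′ to 3′ on the strand of the gene. They lie at chr2:32387690-32387989 (Lcn2, minus strand), chr2:126618629-126618928 (Hdc, minus strand), chr9:111019042-111019341 (Ltf, plus strand) and chr9:110419558-110419857 (Ngp, plus strand). Capitals mark matches to the C/EBP pattern TTNNGNAA, or TTNCNNAA on the other strand.
Lcn2: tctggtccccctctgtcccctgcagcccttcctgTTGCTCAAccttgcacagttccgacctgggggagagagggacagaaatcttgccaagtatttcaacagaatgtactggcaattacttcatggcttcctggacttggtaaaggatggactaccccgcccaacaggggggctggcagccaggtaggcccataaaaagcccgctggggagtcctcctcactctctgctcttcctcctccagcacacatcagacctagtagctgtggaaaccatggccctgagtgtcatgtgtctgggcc
Hdc: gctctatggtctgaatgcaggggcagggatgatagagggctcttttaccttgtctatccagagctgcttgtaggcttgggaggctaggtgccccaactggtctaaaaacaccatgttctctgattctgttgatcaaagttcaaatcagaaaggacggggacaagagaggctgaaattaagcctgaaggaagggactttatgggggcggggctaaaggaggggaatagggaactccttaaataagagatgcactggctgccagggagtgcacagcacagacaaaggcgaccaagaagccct
Ltf: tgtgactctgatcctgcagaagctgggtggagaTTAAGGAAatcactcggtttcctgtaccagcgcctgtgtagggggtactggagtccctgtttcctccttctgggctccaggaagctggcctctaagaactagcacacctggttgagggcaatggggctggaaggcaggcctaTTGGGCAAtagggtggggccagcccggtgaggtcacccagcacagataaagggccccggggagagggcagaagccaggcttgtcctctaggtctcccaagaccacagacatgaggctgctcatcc
Ngp: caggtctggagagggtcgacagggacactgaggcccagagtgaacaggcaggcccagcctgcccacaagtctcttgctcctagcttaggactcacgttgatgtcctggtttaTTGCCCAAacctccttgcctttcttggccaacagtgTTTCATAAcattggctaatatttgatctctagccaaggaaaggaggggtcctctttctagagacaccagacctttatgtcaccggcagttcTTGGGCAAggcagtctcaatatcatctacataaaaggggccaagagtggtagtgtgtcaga
Lcn2 had 1 such match, 216 bases before the start, Ltf had 2 and Ngp had 3, while Hdc had none in this window. Of the 26 genes of the set with a RefSeq promoter, 16 held a match, against 40.7% of all 32851 promoters searched. The NF-kB pattern (GGG, any 2 bases, T, any 2 bases and CC, on either strand) was in 3 of the 26 (Padi4, Pglyrp1 and Stfa2), against 18.4% of all promoters, and in none of those printed. Among those not printed, Camp, Mpo, Elane, Prtn3 and Ctsg, with no called LPS change in resident cells, had 0 C/EBP matches. Other genes also without such a call did have matches, among them Chil3 with 3, and Fcnb and Ms4a3 with 2 each. Stfa1, called higher there with LPS, had 1. The relation of matches to LPS calls was not tested. Such short patterns are common, and a match describes letters, not a site in use.

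Untreated resident macrophages held each of the 31 genes above untreated BMDM, and the log2 difference ran from 1.08 ± 0.17 (SE) for Mmp8 to 10.95 ± 0.36 for Camp. All 31 were called by limma in this comparison, where 39.2% of all 13755 genes tested were called higher. That count is given as a description only, because 13 of the 31 reached the level needed for testing through the resident libraries alone and so had to differ. The other 18 reached 10 normalized reads in at least 2 BMDM libraries. With LPS on both sides 30 of the 31 were called higher in resident cells, where 36.7% of all genes were, and Hdc was the exception. The direction was not particular to this set. All 14 erythroid, all 13 eosinophil, basophil and mast cell and all 9 B lineage markers were called higher in resident cells in both conditions. Untreated, their median log2 differences were 8.12, 3.37 and 4.81, beside 7.86 for the set. These counts too are given as a description only.

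In resident cells the highest genes of the set per length of exon were S100a9, S100a8, Ngp and Camp, the last of these from the secondary granule and myelocyte list like Ngp. S100a9, whose product with S100A8 forms the calcium-binding calprotectin, averaged 192582 normalized reads per kb with LPS and 159835 per kb untreated. S100a8 averaged 96053 per kb with LPS and 79156 untreated, and Ngp, which encodes neutrophilic granule protein, 95373 per kb with LPS and 76850 untreated. Camp, the precursor of the cathelicidin antimicrobial peptide, followed at 40304 with LPS and 32345 untreated. The primary granule genes stood at 1546 to 3104 per kb with LPS and 1697 to 3558 per kb untreated, the tertiary granule and late genes at 268 to 8913 per kb with LPS and 325 to 9988 per kb untreated, and the stefin A genes at 54.2 to 246 per kb with LPS and 27.2 to 103 untreated. In LPS-treated BMDM the highest genes per kb were Hdc (743 with LPS, 2.07 untreated), Ifitm6 (501 with LPS, 178 untreated) and Lcn2 (497 with LPS, 13.7 untreated), and in untreated BMDM they were Mmp8 (394 with LPS, 451 untreated), S100a9 (232 with LPS, 242 untreated) and S100a8 (350 with LPS, 197 untreated).

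Some granulocyte genes were at or near the floor in BMDM, and Ly6g, Stfa1, Stfa2 and Stfa3 were at it in all 4 BMDM libraries. Ly6g, the surface antigen by which mouse neutrophils are usually sorted, had 462, 435 and 554 normalized reads in LPS-treated resident libraries and 379, 442 and 565 in untreated ones, against the floor in all 4 BMDM libraries. Against 3 reads per library this is at least 135-fold higher in resident cells with LPS and at least 169-fold higher untreated. Retnlg, which encodes resistin-like gamma, was at the floor in both LPS-treated BMDM libraries, so that it was at least 1479-fold higher in LPS-treated resident cells. Ms4a3, a membrane protein of granulocyte and monocyte progenitors, had 3 reads over both untreated BMDM libraries, and its ratio of untreated resident to untreated BMDM was 631 with a 95% counting interval of 216 to 3059. These bounds and intervals cover counting error only.

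The BMDM were not empty of the set. Mmp8, the neutrophil collagenase, had 2031, 1462 and 1629 normalized reads in LPS-treated resident libraries, against 915 and 994 in LPS-treated BMDM, a log2 difference of 0.83 ± 0.17 (limma adjusted p = 0.00122). In untreated cells it had 2350, 1891 and 2787 in resident libraries, against 1131 and 1055 in BMDM (adjusted p = 0.000195 by limma). The groups did not overlap in either condition. Mmp9, the gelatinase of tertiary granules, differed by 2.22 ± 0.17 with LPS and by 3.65 ± 0.17 untreated, and Ifitm6, an interferon-induced transmembrane family member of myeloid cells, by 1.60 ± 0.17 with LPS and 3.05 ± 0.17 untreated. Padi4, the enzyme that converts arginine to citrulline in histones, was present in BMDM at lower levels, with 36.0 and 35.2 normalized reads with LPS and 63.8 and 79.5 untreated.

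In resident macrophages LPS raised Lcn2, Orm1, Hdc and 3 stefin A genes, lowered Mmp9, and left most granule genes without a called change. Of the 31 genes 6 were called higher, or 19.4%, where 7.36% of all genes tested were, and 1 was called lower, or 3.23%, where 5.57% of all genes were. The counts of the set in this paragraph are a description only, because its genes were chosen with earlier results of these data known. The median log2 change of the set was 0.08, beside 0.00 over all genes. With libraries scaled to equal totals, which moved the median of all genes to -0.12, 3 were called higher and 2 lower. Of all genes 17.4% were then called in either direction, against 12.9% without this scaling. Without overlap between the groups, 7 genes were higher, where 13.8% of all genes were, and 1 was lower, where 13.3% were.

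**Figure D2:**
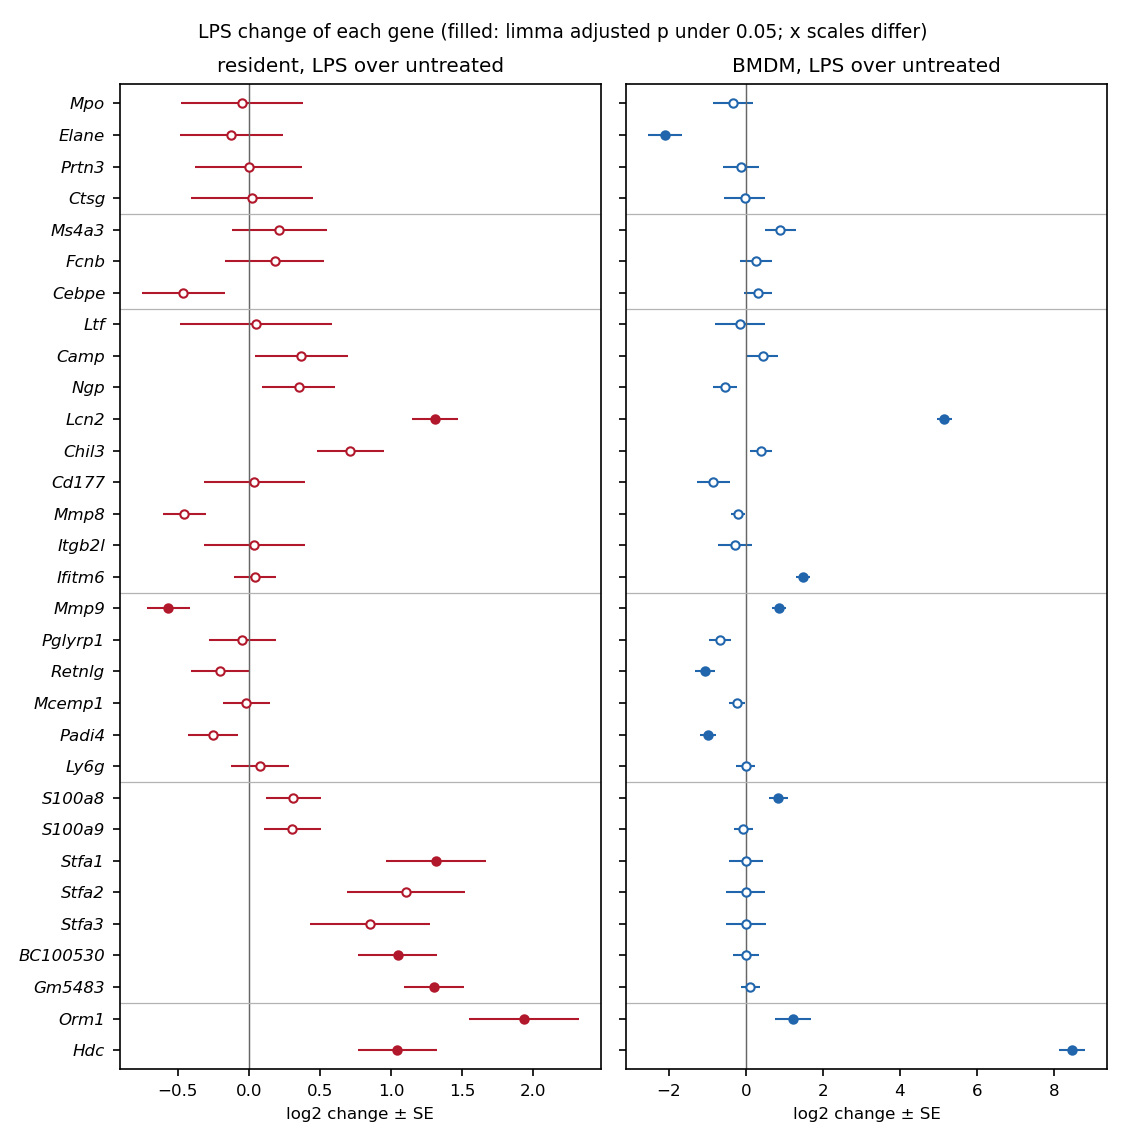
Log2 change with LPS over untreated (points) with its standard error (bars) for each gene, in resident macrophages on the left and BMDM on the right, with filled points for a limma adjusted p under 0.05. The x scales differ: the largest resident change is 1.93 (Orm1), and the largest BMDM change is 8.48 (Hdc).

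The primary granule genes showed no called change in resident cells, with 0 of 4 called by limma and 0 at an unadjusted p under 0.05. Mpo, which encodes the enzyme that makes hypochlorous acid, had 3305, 5310 and 7263 normalized reads with LPS and 2618, 6201 and 8667 untreated. Elane, which encodes neutrophil elastase, had 1981, 3533 and 3649 with LPS and 1742, 3905 and 4856 untreated. Both sets of libraries overlapped, with the lowest value of each group in replicate 1. Log2 changes were -0.05 ± 0.43 for Mpo, -0.12 ± 0.36 for Elane, -0.00 ± 0.38 for Prtn3, the related proteinase 3, and 0.02 ± 0.43 for the protease cathepsin G gene Ctsg. Of the 3 promyelocyte to myelocyte genes 0 were called by limma, and 0 had an unadjusted p under 0.05; voom called none of these 7 genes. Ms4a3 changed by 0.22 ± 0.33, Fcnb, which encodes a lectin that binds microbial sugars, by 0.18 ± 0.35, and Cebpe, the gene of C/EBP epsilon, by -0.46 ± 0.29.

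Among 9 secondary granule and myelocyte genes Lcn2 alone was called. Lcn2 encodes lipocalin 2, which binds bacterial siderophores and so withholds iron. It had 58200, 58687 and 57048 normalized reads in LPS-treated resident libraries, against 18650, 23939 and 28543 in untreated ones. The LPS libraries lay close together and each was above every untreated library. The log2 change was 1.31 ± 0.16 (limma adjusted p = 0.00106). Chil3, which encodes a chitinase-like protein also called Ym1, had 27762, 33417 and 32343 with LPS, against 13205, 20282 and 25342 untreated. Its groups did not overlap, but the change of 0.71 ± 0.23 missed the threshold (limma adjusted p = 0.0739), and 26.9% of its 50-base stretches also occur in other genes, chiefly Chil4. Ltf, which encodes the iron-binding lactoferrin, had 21799, 24599 and 27685 with LPS and 16729, 24957 and 31884 untreated, and its groups overlapped. The other 6 genes had log2 changes between -0.45 for Mmp8 (adjusted p = 0.0759 by limma) and 0.37 for Camp, among them the surface glycoprotein gene Cd177 at 0.04 ± 0.35 and the integrin beta 2-like gene Itgb2l at 0.04 ± 0.36.

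Of 6 tertiary granule and late maturation genes, 1 was called. Mmp9 had 3478, 2878 and 3285 normalized reads with LPS, against 4417, 4108 and 5889 untreated. Every LPS library was below every untreated one, and the change was -0.57 ± 0.15 (limma adjusted p = 0.0350). This call was lost in 7 of 21 alternative settings. Pglyrp1, whose product binds bacterial peptidoglycan, changed by -0.04 ± 0.23, Mcemp1, a membrane protein gene first named from mast cells, by -0.02 ± 0.17, Ly6g by 0.08 ± 0.20, Retnlg by -0.20 ± 0.21 and Padi4 by -0.25 ± 0.17.

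The S100 genes had no called change in resident cells, and 3 of the stefin A genes, whose products inhibit cysteine proteases, were called higher. S100a8 had 67259, 66246 and 66477 normalized reads with LPS and 39688, 57607 and 67506 untreated, a change of 0.31 ± 0.19 with overlapping groups. S100a9 changed by 0.31 ± 0.20. Among the 5 stefin A genes, all on chromosome 16, Gm5483 had 328, 313 and 357 with LPS, against 120, 126 and 159 untreated. Its groups lay far apart, with a change of 1.30 ± 0.21 (limma adjusted p = 0.00397). Stfa1 had 149, 231 and 145 with LPS, against 39.2, 80.7 and 99.1 untreated, a change of 1.32 ± 0.35 (limma adjusted p = 0.0373), and BC100530 changed by 1.05 ± 0.28 (adjusted p = 0.0344 by limma). The Stfa1 call was lost in 13 alternative settings and the BC100530 call in 11. Stfa2 changed by 1.10 ± 0.42 and Stfa3 by 0.85 ± 0.42, neither called. Counts of these near copies are uncertain, since 25.1% of the 50-base stretches of BC100530, 22.5% of Stfa1, 15.9% of Stfa2 and 11.0% of Gm5483 also occur in other genes, and none of Stfa3.

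Orm1 and Hdc were both called higher. Orm1 encodes orosomucoid, a plasma protein that the liver makes in the acute phase. It had 814, 1166 and 981 normalized reads with LPS, against 153, 303 and 358 untreated, with a change of 1.93 ± 0.39 (limma adjusted p = 0.0108). Each LPS library exceeded each untreated one more than 2-fold, and 20.4% of the 50-base stretches of Orm1 are shared with Orm2. Hdc encodes histidine decarboxylase, which makes histamine. It had 6052, 7693 and 8125 with LPS, against 2451, 3897 and 4522 untreated, with a change of 1.04 ± 0.28 (adjusted p = 0.0343 by limma) that was lost in 9 of 21 alternative settings.

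Hdc is also a gene of basophils and mast cells, whose markers were present in resident libraries. The 7 basophil and mast cell markers together took 0.00991% to 0.0139% of normalized reads in LPS-treated and 0.00656% to 0.0137% in untreated resident libraries. In BMDM they took 0.000714% to 0.000983% with LPS and 0.00109% to 0.00143% without, and none of the 7 was at the floor in all libraries of a group. Mcpt8, a basophil protease gene, had 317, 317 and 309 in LPS-treated and 211, 276 and 296 in untreated resident libraries, and in BMDM 24.7 and 47.4 with LPS and 23.7 and 24.7 without. The 13 eosinophil, basophil and mast cell markers had log2 changes between -0.12 and 0.50 with LPS in resident cells, none of them called by limma. Their part in the Hdc level was not tested.

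In BMDM the response of the set rested on a few genes. LPS raised 6 of the 31, or 19.4%, where 28.3% of all genes were called higher, and lowered 3, or 9.68%, where 29.5% of all genes were. Both shares lay under those of all genes, and 5 of the 31 were at the floor in both LPS-treated libraries and 6 in both untreated ones. The comparison of shares is a description only, because 13 of the 31 passed the filter through the resident libraries alone. Their low BMDM levels left little room for a fall. The median log2 change was 0.00 for the set and -0.04 for all genes. With libraries scaled to equal totals, which moved the median of all genes to -0.64, 3 were called higher and 8 lower. Of all genes 72.7% were then called in either direction, against 57.8% without this scaling.

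Hdc had 4656 and 4833 normalized reads in LPS-treated BMDM, against 8.20 and 18.3 in untreated BMDM. The groups lay hundreds-fold apart, with a log2 change of 8.48 ± 0.34 (limma adjusted p = 9.55e-09). Beside it the basophil marker Cpa3, a carboxypeptidase gene, had 35.0 and 46.1 with LPS and 15.5 and 24.7 without, and the 7 markers summed to 277 and 379 normalized reads with LPS, against 268 and 371 without. Of the 13 eosinophil, basophil and mast cell markers 3 were called higher in BMDM and 0 lower, with a median log2 change of 0.40. Their part in the Hdc change was not tested. Lcn2 had 1369 and 1237 with LPS, against 29.2 and 43.0 without, a change of 5.16 ± 0.20 (limma adjusted p = 7.35e-09). These calls held in all 21 alternative settings.

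Smaller rises were those of Ifitm6, Mmp9, S100a8 and Orm1. Ifitm6 had 479 and 428 normalized reads with LPS, against 168 and 154 without, a change of 1.49 ± 0.18 (limma adjusted p = 5.21e-05). Mmp9 had 784 and 601 with LPS, against 411 and 344 without, a change of 0.87 ± 0.18 (limma adjusted p = 0.00228). Neither pair of groups overlapped. S100a8 had 266 and 219 with LPS, against 109 and 165 without (0.84 ± 0.24, limma adjusted p = 0.0112), while S100a9, its partner in calprotectin, had 103 and 140 with LPS and 108 and 145 without (-0.06 ± 0.24). The difference between these partners was not tested. Orm1 rested on few reads, with 20.6 and 10.8 with LPS against 3.65 and 9.14 without (adjusted p = 0.0478 by limma), and its call was lost in 12 alternative settings.

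The 3 genes that LPS lowered in BMDM were at low levels. Padi4 fell by 0.98 ± 0.21 on the log2 scale, to the 36.0 and 35.2 normalized reads given above (limma adjusted p = 0.00265). Elane had 1.03 and 1.00 with LPS, against 6.38 and 9.14 without, and Retnlg 1.00 in both LPS libraries, against 2.73 and 3.66 without. Both were called by limma (adjusted p = 0.00214 for Elane and 0.00467 for Retnlg), yet each rests on a handful of reads. With voom, which weights values by their read counts, none of the 3 was called. Ltf illustrates the precision at such levels: it had 14.4 and 13.5 with LPS and 5.47 and 42.0 without.

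The resident LPS change minus the BMDM change was called at 6 of the 31 genes. Of these, 2 were higher, or 6.45% of the set, where 19.0% of all genes were, and 4 were lower, or 12.9%, where 22.8% were. These shares are a description only, because 13 of the 31 passed the filter through the resident libraries alone. Lcn2 differed by -3.85 ± 0.26 (limma adjusted p = 1.04e-06) and Hdc by -7.43 ± 0.44 (limma adjusted p = 4.33e-07). Both rose in each origin, with the larger log2 change in BMDM, where their untreated levels were low. In normalized reads the rise of Lcn2 was larger in resident cells, from a mean of 23711 to 57978, against 36.1 to 1303 in BMDM. Ifitm6 differed by -1.44 ± 0.24, with a resident change of 0.05 that was not called. Mmp9 moved in opposite directions, called in each origin, and its difference was -1.43 ± 0.24 (limma adjusted p = 0.000796). For the other 2 the BMDM change is set by the floor. Gm5483 had 1 read in LPS-treated and 0 in untreated BMDM, so its difference of 1.18 ± 0.33 restates the resident change, and with voom it was 0.15 ± 1.00. Elane had 1 read in LPS-treated and 17 in untreated BMDM, and its difference of 1.98 ± 0.57 was not called with voom either. This difference uses the same libraries as the within-origin changes.

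**Figure D3:**
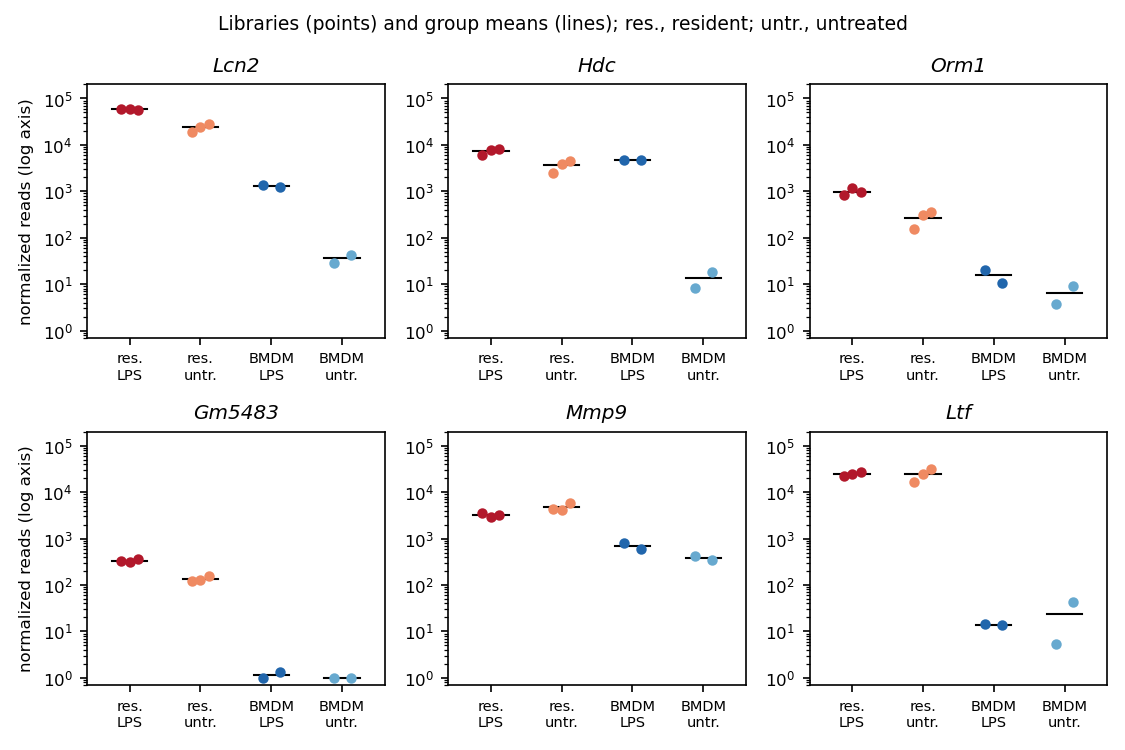
Normalized reads (log axis) of 6 genes in each library (points) with the group mean (line), for LPS-treated and untreated resident macrophages and LPS-treated and untreated BMDM. Hdc in LPS-treated BMDM (4656 and 4833) lies near the resident values, Lcn2 stays lower in BMDM, Mmp9 moves in opposite directions in the 2 origins, and Ltf shows no called LPS change in either.

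With LPS, Hdc was the gene at which the origins came closest. LPS-treated resident libraries had 6052, 7693 and 8125 normalized reads, against 4656 and 4833 in LPS-treated BMDM. The values did not overlap, but the log2 difference of 0.61 ± 0.31 was not called (limma adjusted p = 0.10). It was called in 8 of 21 alternative settings, over which it ran from 0.52 to 0.93. Lcn2 remained far higher in resident cells with LPS, by 5.48 ± 0.18, although the gap was smaller than the untreated one of 9.33 ± 0.18.

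Within the resident groups replicate 1 stood apart from the others for much of the set. Replicate 1 was the lowest of 3 for 21 of the 31 genes with LPS and for 27 untreated, where 40.3% of all genes were with LPS and 41.9% untreated. The ratio of replicate 1 to the mean of replicates 2 and 3 had a median of 0.836 over the set with LPS and 0.600 untreated, beside 0.987 with LPS and 0.992 untreated over all genes. For primary granule genes the median ratio was 0.557 with LPS and 0.380 untreated. With LPS it was 0.740 for the promyelocyte to myelocyte genes, 0.858 for secondary granule genes and 0.959 for tertiary granule and late genes. Untreated it was 0.488 for the promyelocyte to myelocyte genes, 0.620 for secondary granule genes and 0.729 for tertiary granule and late genes. The S100 and stefin A genes had medians of 0.933 with LPS and 0.621 untreated, and Orm1 and Hdc 0.762 with LPS and 0.522 untreated. The medians of the granule stages run upward from the earliest stage in both conditions, but single genes spread widely, from 0.835 to 1.68 among the tertiary granule and late genes with LPS, and the order of stages was not tested. The macrophage markers had median ratios of 1.16 with LPS and 1.46 untreated. These 2 libraries are also the ones with Y-linked transcripts, and the part of that in the ratios was not tested.

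**Figure D4:**
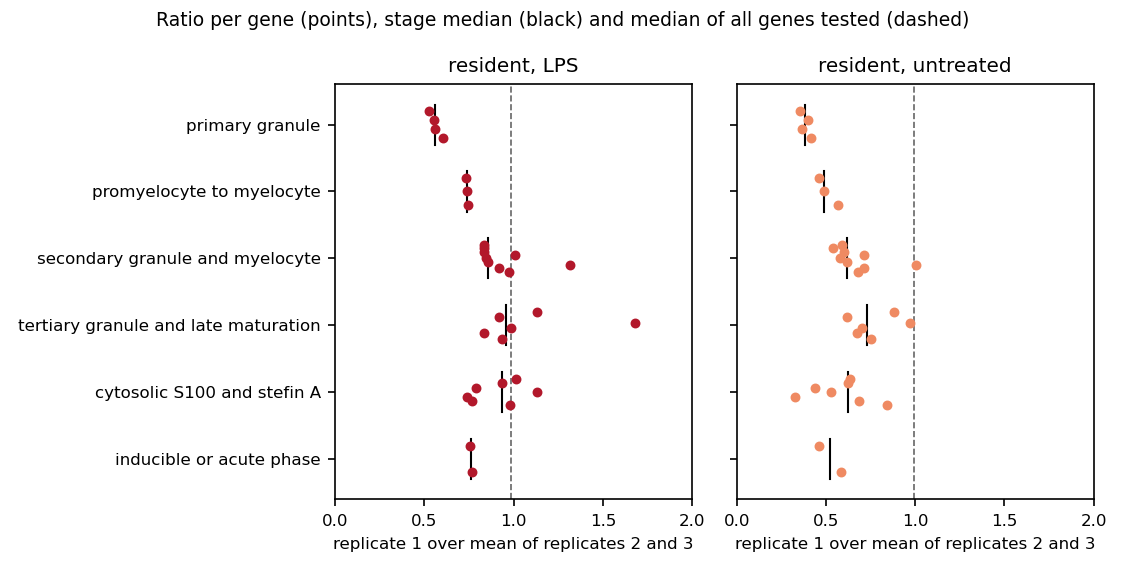
Ratio of replicate 1 to the mean of replicates 2 and 3 for each gene (points), by stage, in LPS-treated and untreated resident macrophages, with the median of the stage (black line) and of all genes tested (dashed line). The median ratio runs from 0.557 (primary granule) to 0.959 (tertiary granule and late) with LPS, and from 0.380 to 0.729 untreated.

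The LPS changes were also taken within these 2 libraries and without them. The log2 change between the 2 libraries with Y-linked transcripts and the change between the other 4 resident libraries had the same sign for 17 of the 31 genes and opposite signs for 14. All 4 primary granule genes were higher with LPS between the libraries with Y-linked transcripts (0.34 for Mpo, 0.19 for Elane, 0.42 for Prtn3 and 0.38 for Ctsg) and lower with LPS between the others (-0.24 for Mpo, -0.28 for Elane, -0.21 for Prtn3 and -0.15 for Ctsg). The 7 called genes had the same sign in both. They were called from these same libraries, so their agreement is no separate support. Between the libraries with Y-linked transcripts, and then between the others, Lcn2 changed by 1.64 and 1.15, Orm1 by 2.41 and 1.70, Hdc by 1.30 and 0.91, Gm5483 by 1.44 and 1.23, Stfa1 by 1.89 and 1.03, BC100530 by 1.15 and 0.99, and Mmp9 by -0.34 and -0.68. The first value of each rests on 1 library a side and carries no test. With a term for these libraries 9 of the 31 were called, where 25.1% of all genes were, with Chil3 (0.71, limma adjusted p = 0.0122) and Mmp8 (-0.45, limma adjusted p = 0.0272) among them. With both of these libraries left out 6 of the 31 were called, where 21.1% of all genes were, and Stfa1 (limma adjusted p = 0.0546) and BC100530 (limma adjusted p = 0.0559) were no longer called.

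Other genes of granulocyte biology also changed in resident cells with LPS. Of all genes tested in this comparison 7.36% were called higher and 5.57% lower, as given above, and the lists are small. Of 12 other regulators of granulocyte formation, 3 were called higher and 1 lower. Csf3, the gene of granulocyte colony-stimulating factor, rose by 1.83 ± 0.31 (limma adjusted p = 0.00526), and Cebpa, the gene of a transcription factor needed for the first steps of the lineage, changed by -1.20 ± 0.19 (limma adjusted p = 0.00334). Of 15 other granule proteins and their processing enzymes 2 were called higher, Hp by 1.21 ± 0.15 and Srgn by 0.61 ± 0.17, the genes of haptoglobin and of the granule proteoglycan serglycin. Of 10 granule protease inhibitors tested, 3 were called higher, the metalloproteinase inhibitor gene Timp1 by 1.23, Slpi by 1.12 and Wfdc21 by 0.79, and Timp2 was lower by a log2 change of -0.60. Of 23 surface and signalling genes of mature neutrophils 6 were higher, led by the formyl peptide receptor gene Fpr1 (1.82 ± 0.15), the lectin receptor gene Clec4e (1.30) and the hydroxycarboxylic acid receptor gene Hcar2 (1.25). Cd101 (-1.87 ± 0.24), the chemokine receptor gene Cxcr2 (-1.69 ± 0.34) and Cxcr4 (-1.06 ± 0.13), whose product holds neutrophils in the marrow, were lower. Among markers of other cells, 3 of 6 monocyte markers were lower (Ccr2, F13a1 and Cx3cr1) with none higher, and 2 of 15 macrophage markers were lower.

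In BMDM, where 28.3% of all genes were called higher and 29.5% lower, the same lists held more called genes. Of the 12 regulators 9 were called higher and 2 lower: Csf1, the macrophage growth factor gene, rose by 5.58 ± 0.13, Gfi1, a repressor needed for neutrophil formation, by 5.17 ± 0.32 and Csf3 by 3.55 ± 0.38, while Cebpa fell by 3.62 ± 0.23. Gfi1 had 203 and 190 normalized reads with LPS, against 3.65 and 5.48 without. Of the 15 other granule genes 4 were higher and 4 lower, or 26.7% each way, close to the shares of all genes, with Mmp25, a membrane-bound metalloproteinase, at 5.99 ± 0.12 and Adam8 at -2.08 ± 0.14. Of the 10 inhibitors 6 were higher, led by Serpina3g (7.32 ± 0.26) and Timp1 (6.35 ± 0.36). Of the 23 surface genes 10 were higher and 7 lower, with the formyl peptide receptor gene Fpr2 at 7.89 ± 0.27 and Cxcr4 at -4.70 ± 0.15.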

How the data were processed

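RNA was sequenced from 10 libraries, and the deposited signal values hold reads per gene, scaled by the authors with a single factor for each library and floored at 1. A check of the table found 100% of values below 1000 reads to be whole multiples (tolerance 0.02) of a step that ran from 0.892 to 1.35 between libraries, and dividing by the step gave the recovered reads. HISAT 0.1.7 and build mm10 are listed in the submitters' processing notes, while trimming, annotation and counter were not given in the sources used here.

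Groups came from the labels, and all libraries were used. Values were analysed as log2(value + 1) with limma 3.58.1 in R 4.3.3, in a model of 4 groups over 10 libraries (6 residual degrees of freedom, variance trend). A filter (value of 10 in 2 libraries) kept 13755 genes, all 31 members among them, and removed 54. P-values, 2-sided, received the Benjamini-Hochberg adjustment over every gene tested, and called means under 0.05. Fold changes on this scale understate those of low genes. Exon lengths, positions and shared stretches of 50 bases come from GENCODE, and per-length values divide by total exon length.

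Members, stage lists and the 10 other lists were chosen with earlier results of these data known. All members are named, and from the other lists at most 3 called genes in each direction, largest change first. Alternatives were other pseudocounts (0.1 and 10), no filter and a filter at 100, quantile normalization, equal library totals, no variance trend, only the groups compared, a Y-linked library term or leaving both such libraries out, leaving out each library and, chosen after seeing the data, voom on recovered reads. A planned count model was not run. Figures used Python 3.11.15 and matplotlib 3.10.9.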

Additional observations from a re-analysis of the deposited data

Results flagged for a closer look

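Tested as the LPS change in resident macrophages minus that in BMDM, 6 of the 31 genes were called (limma adjusted p under 0.05), where 41.8% of all genes were. The log2 differences were -7.43 for Hdc, -3.85 for Lcn2, -1.44 for Ifitm6 and -1.43 for Mmp9, each held under every alternative in which it could be computed. They were 1.98 for Elane and 1.18 for Gm5483. The Elane difference was not called in 6 of 20 alternative settings and the Gm5483 difference in 2 of 20, and in BMDM both genes had at most 17 reads in a group, so that the Gm5483 difference restates its resident change.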

How the results depend on the processing

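Over 21 alternative settings the called LPS changes of Lcn2, Gm5483 and Orm1 in resident cells, and of Lcn2, Hdc and Ifitm6 in BMDM, kept their direction and their side of the threshold. In resident cells the 7 called genes became 3 when only the resident groups were fitted and 3 to 7 when 1 resident library was left out. There were 3 without replicate 2 or without replicate 3 of the LPS-treated group. The share of all genes called also moved. It was 12.9% in the full model, 3.85% with only the resident groups and 7.07% to 16.7% with 1 resident library left out. In BMDM the 9 called genes became 5 with voom on recovered reads and 6 with a pseudocount of 10, and 8 to 11 with 1 resident library left out. Of all genes 57.8% were called in BMDM in the full model, 55.8% with voom and 57.0% with a pseudocount of 10. With 1 resident library left out the share was 57.3% to 62.2%. The 6 called differences between origins became 11 with the term for Y-linked transcripts, while the share of all genes called went from 41.8% to 52.5%. The Ltf change in BMDM was -1.52 to 1.21 and its difference between origins -1.16 to 1.58 with replicate 1 or 2 of untreated BMDM left out, the values without replicate 2 reversing those of the full data. Apart from the settings that fit fewer samples or weight low counts, the cause was not tested. With equal library totals the median of all genes moved to -0.12 in resident cells and -0.64 in BMDM with LPS, and the calls in BMDM became 3 higher and 8 lower, with Mmp9 (0.26) and S100a8 (0.24) no longer called. The share of all genes called in BMDM went from 57.8% to 72.7% under this scaling. Low read numbers limit the BMDM values of most granule genes. The planned count model, edgeR on recovered reads, was not run. No paired analysis was possible because the labels give the groups no shared replicate numbers, and the term for Y-linked transcripts follows the data, not the labels.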
